A study of Sus scrofa with 6 samples.

Results

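The cluster of miR-183, miR-96 and miR-182 is a set of microRNAs (miRNAs) cut from 1 primary transcript. It was followed here in cultured immature Sertoli cells of the pig. Its members were found by name in the deposited table, which gave miR-182, miR-183 and miR-96-5p, 3 of 1645 entries and of the 358 known pig miRNAs among them. The libraries came from fetal testis, with gestation given as 80 to 90 days. Every culture was kept in Minimum Essential Medium with 10% fetal bovine serum and antibiotics, and was seeded 6 h before treatment. The 3 control libraries had no treatment, and the 3 AA2P libraries had 250 µM AA2P, the sesquimagnesium salt hydrate of L-ascorbic acid 2-phosphate, a stable form of vitamin C. The strain, the duration of treatment and the origin of the libraries of a group, in 1 culture or animal or in several, were not stated. The p-values therefore cover the spread among these libraries alone, and that spread may be technical.

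The cluster is conserved among vertebrates and is best known from sensory organs, where it is abundant in photoreceptors and in the hair cells of the inner ear. Its 3 mature products have similar seeds, the short stretch near the 5′ end that pairs with target transcripts, and FOXO1 is a target that they share. miR-96 is needed for hair cell maturation, miR-182 is known to repress FOXO3 and MITF, and miR-183 is known to repress EGR1 and the membrane-cytoskeleton linker ezrin. In the RefSeq annotation of the pig assembly Sscrofa11.1, all 3 genes were found on 1 chromosome in the order MIR183, MIR96, MIR182, with 0 other annotated genes between them. UBE2H and NRF1, both protein-coding, are the genes on either side.

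The deposited values are in TPM, here counts scaled to the same total in every library with no length term seen, so that levels of different miRNAs can be set side by side. The step between the lowest values put the depth at 25.8 to 36.0 Mreads per library (counted reads, M for mega). A count of 0 then allows a level of up to 0.0834 to 0.116 TPM (3 reads), for counting error only. Entries that reached 1 TPM in 3 or more libraries were tested together. Of these 433, 24.7% passed an adjusted p of 0.05, 19.9% as higher and 4.85% as lower with AA2P. All 3 members of the cluster passed this filter on low values. AA2P replicate 2 stood apart for the cluster, and the fold changes, ratios and likeness of the members are given below without it too.

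miR-182 was the most abundant member. It stood at 6385, 7136 and 6466 TPM in control replicates 1, 2 and 3 and at 5681, 7503 and 5745 TPM in the AA2P libraries. AA2P replicate 2 was the highest of all 6 libraries while the other AA2P libraries were the lowest, so the groups overlapped. The means were 6662 ± 413 and 6310 ± 1034 TPM (SD, n = 3 per group), and miR-182 ranked between the 15th and the 18th of all entries in each library. Its log2 fold change on the log2(TPM + 1) scale was -0.09 (SE 0.125) and did not pass (limma, adjusted p = 0.609). The 95% interval of the change ran from 0.761-fold to 1.16-fold.

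miR-183 was next in abundance. Its level was 4595, 4371 and 4273 TPM in the controls and 3710, 4610 and 3727 TPM in the AA2P libraries. AA2P replicate 2 again lay above every control library and the other AA2P libraries below every one. The means were 4413 ± 165 and 4015 ± 515 TPM (SD, n = 3 per group), at ranks 22 to 28 of all entries. Ranks and shares count entries, some of which repeat the same values under several names. The log2 fold change was -0.14 (SE 0.102; limma, adjusted p = 0.335), with a 95% interval of 0.762-fold to 1.08-fold.

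miR-96-5p was far less abundant than its partners. It stood at 455.55, 373 and 488 TPM in the controls and at 482, 562 and 457 TPM with AA2P. Control replicate 2 was the lowest library and AA2P replicate 2 the highest, and the groups overlapped. The means were 439 ± 59.0 and 500.1 ± 54.7 TPM (SD, n = 3 per group), at ranks 77 to 89, and the log2 fold change was 0.19 (SE 0.132; limma, adjusted p = 0.319). Its 95% interval ran from 0.914-fold to 1.43-fold. The order miR-182, miR-183, miR-96-5p held in all 6 libraries, and the levels of neighbours in this order did not overlap in any group.

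**Figure D1:**
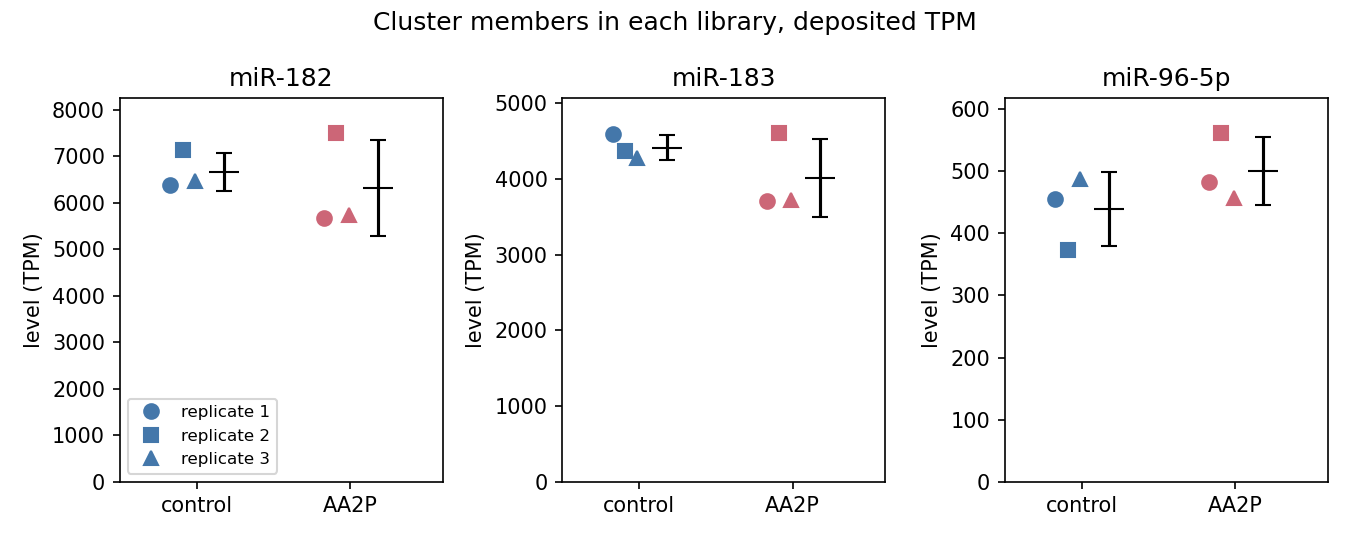
Level of miR-182, miR-183 and miR-96-5p in deposited TPM (vertical axes from 0) in the control and AA2P libraries; each point is 1 library, its shape gives the replicate number, and the bar is the mean ± SD of 3 libraries. AA2P replicate 2 (7503, 4610 and 562 TPM) is the highest of the AA2P libraries in each panel, and the groups overlap in all 3.

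As deposited, 0 of the 3 members passed the test in either direction (also 0 of the 3 at an unadjusted p under 0.05), beside 24.7% of all tested entries. The median log2 fold change of the members was -0.09, beside 0.25 for all tested entries. Of those entries, 22.2% had a log2 fold change below that of miR-182, 19.9% below that of miR-183 and 42.3% below that of miR-96-5p. miR-182 rested on 152715 to 269953 implied reads per library, a counting error of 0.192 to 0.256%, while its coefficient of variation was 6.19% in the controls and 16.4% with AA2P. miR-96-5p rested on 11762 to 20204 reads, with a counting error of 0.704 to 0.922% and a coefficient of variation of 13.4% and 10.9%.

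AA2P replicate 2 was 1.31-fold, 1.24-fold and 1.20-fold above the mean of the other AA2P libraries for miR-182, miR-183 and miR-96-5p. The median of all tested entries was 0.03 higher there on the log2 scale, and 38.8% of them had their highest AA2P value in that library. miR-21-5p, which took more of the TPM than any other entry, was lowest in the same library. Its part in the levels of the cluster there was not tested. Without AA2P replicate 2 the log2 fold change was -0.25 for miR-183 and -0.22 for miR-182 (limma, adjusted p = 0.0584 and 0.109), and both had an unadjusted p under 0.05. Without the same library miR-96-5p was at 0.11 (adjusted p = 0.604).

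Which members were called, and the sign of miR-96-5p, depended on what the libraries were scaled to; miR-183 and miR-182 were lower under the deposited totals and all 5 other scalings, though not always called. miR-21-5p, a broadly expressed miRNA that represses PDCD4, took 51.3, 53.0 and 51.8% of the TPM in the controls and 42.2, 37.0 and 44.1% with AA2P. Every library sums to the same total, so the other entries were compared within the remainder as well. Of the TPM outside miR-21-5p, the summed cluster took 2.35, 2.53 and 2.33% in the controls and 1.71, 2.01 and 1.78% with AA2P, and every AA2P library lay below every control library. As a share of all TPM the cluster took 1.15% ± 0.0334 and 1.08% ± 0.160 (SD, n = 3 per group), and the groups overlapped.

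**Figure D2:**
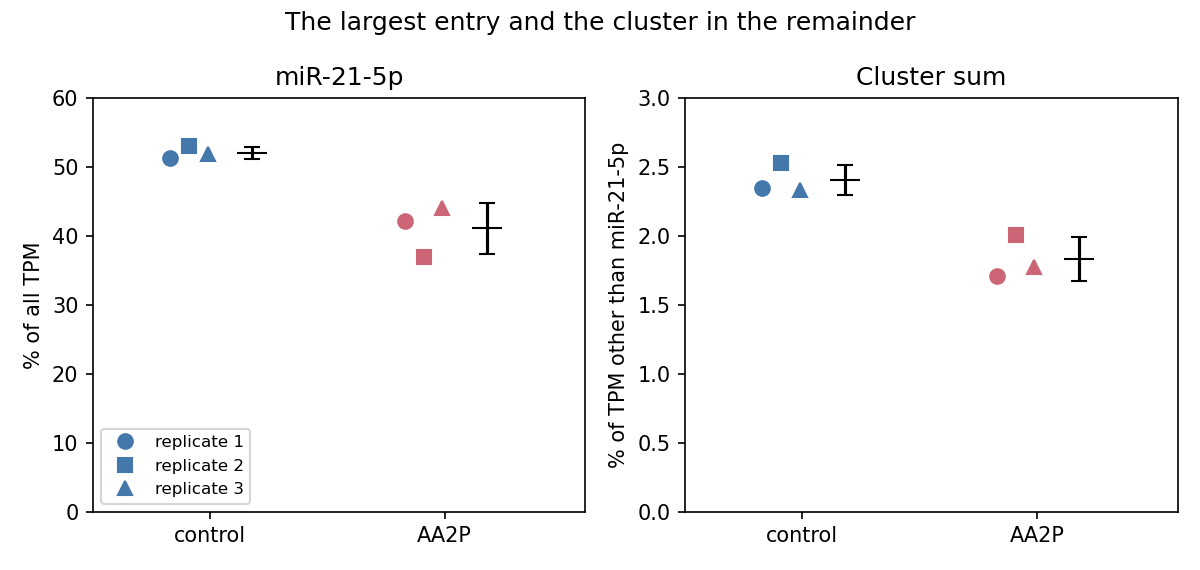
Share of miR-21-5p in all TPM (left) and share of the summed cluster in the TPM other than miR-21-5p (right), both in percent with axes from 0; each point is 1 library, its shape gives the replicate number, and the bar is the mean ± SD of 3 libraries. The AA2P libraries lie below the control libraries in both panels, at 37.0 to 44.1% on the left and 1.71 to 2.01% on the right.

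In totals taken without miR-21-5p, miR-183 and miR-182 passed as lower with AA2P and miR-96-5p did not. miR-183 took 0.920% ± 0.0294 of the remainder in the controls and 0.680% ± 0.0461 (SD, n = 3 per group) with AA2P, a log2 fold change of -0.44 (SE 0.0700; limma, adjusted p = 0.0103). miR-182 went from 1.39% ± 0.112 to 1.07% ± 0.109, a log2 fold change of -0.38 (SE 0.0989; limma, adjusted p = 0.0433). The groups did not overlap for either, as was so for 20.3% of all tested entries in that direction. Under this scaling 9.93% of all tested entries passed as lower and 9.01% as higher. miR-96-5p stood at 0.0914% ± 0.0111 and 0.0847% ± 0.00386 of the remainder, a log2 fold change of -0.10 (SE 0.105; limma, adjusted p = 0.557). Leaving out each library in turn under this scaling, a check added after the data were seen, kept the call of miR-183 in 6 of 6 cases (adjusted p = 0.0119 to 0.0416). The call of miR-182 held in 1 of 6, the one without AA2P replicate 2 (adjusted p = 0.0268), and ended without any other single library (adjusted p = 0.0866 to 0.143).

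Scaling by trimmed mean, by median of ratios and by totals without the 10 most abundant entries also put miR-183 past the threshold as lower. Its log2 fold changes were -0.43, -0.41 and -0.34 (limma, adjusted p = 0.0283, 0.0266 and 0.03997). The share of all tested entries that passed as lower was 11.5, 11.5 and 8.31% under these scalings. miR-182 was at -0.38, -0.36 and -0.28 and did not pass (limma, adjusted p = 0.106, 0.117 and 0.153). Under quantile normalization, where 9.70% of entries passed as lower, no member passed, with log2 fold changes of -0.11 for miR-183, -0.17 for miR-182 and -0.09 for miR-96-5p. Over all tested entries the median log2 fold change, 0.25 as deposited, was shifted by -0.18 to -0.26 by these 5 scalings. Set against the median of all tested entries, miR-183 lay at -0.39 as deposited and at -0.41 to -0.43 under 4 of the 5, and at -0.09 with quantile normalization. The same difference for miR-96-5p was -0.06 as deposited and -0.08 to -0.09 under the 5 scalings.

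**Figure D3:**
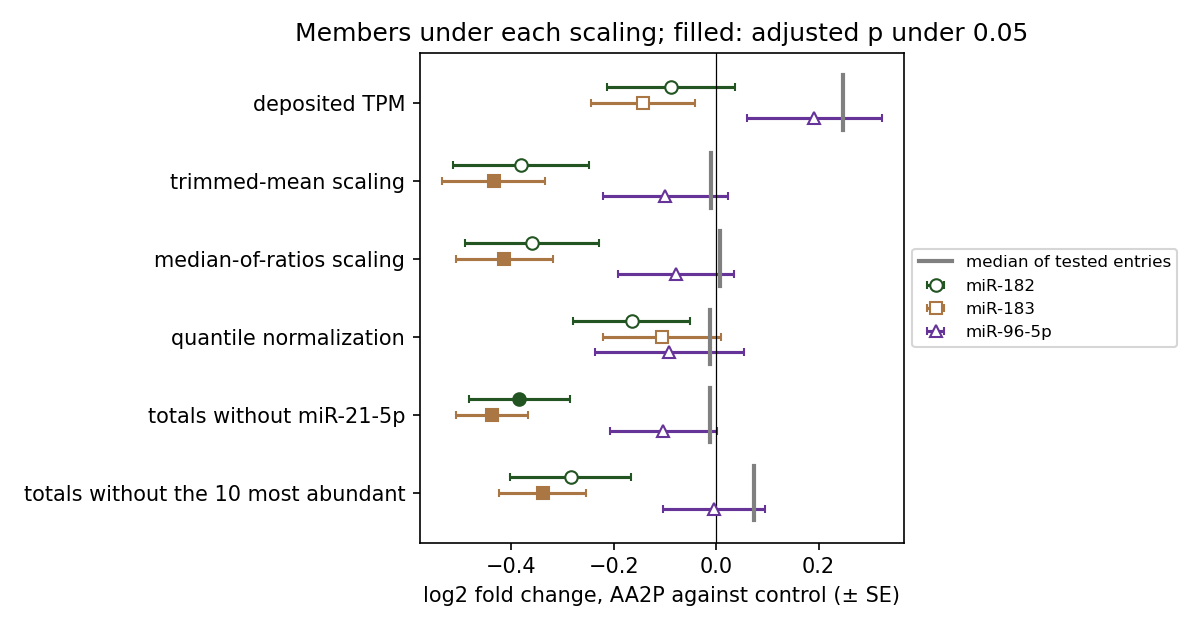
Log2 fold change of each member, AA2P against control (horizontal axis, bars ± SE from limma), under the deposited totals and 5 other scalings; filled symbols have an adjusted p under 0.05 and the grey bars mark the median of all tested entries. miR-183 is filled under 4 scalings (-0.34 to -0.44) and miR-182 under 1 (-0.38), while miR-96-5p changes sign between the deposited totals (0.19) and the others.

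The members were next set against each other within each library, where the library total cancels. The ratio of miR-182 to miR-183 was 1.39, 1.63 and 1.51 in the controls and 1.53, 1.63 and 1.54 with AA2P. All AA2P ratios fell inside the range of the controls, and the difference in log2 ratio was 0.05 (two-sided exact permutation test, p = 0.5, adjusted over the 3 ratios 0.5).

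miR-96-5p held a varying share of the cluster. The level of miR-96-5p was 0.0991, 0.0854 and 0.114 of that of miR-183 in the controls and 0.130, 0.122 and 0.123 with AA2P, so that every AA2P library lay above every control library. The log2 ratio went from -3.34 ± 0.209 to -3.00 ± 0.0511 (SD, n = 3 per group), a difference of 0.33 or 1.26-fold. By a two-sided exact permutation test p was 0.1, which is as low as 3 libraries against 3 can give, and 0.3 after adjustment over the 3 ratios. Groups that do not overlap were common in this measure, since 55.4% of 352 entries above 0 in every library lay higher against miR-183 in all AA2P libraries. A limma fit of all entries relative to miR-183, added after the data were seen, gave miR-96-5p a log2 difference of 0.33 (SE 0.122) that did not pass (adjusted p = 0.0816), with a 95% interval of 1.03-fold to 1.55-fold; 29.9% of entries passed as higher in that fit. Against miR-182, miR-96-5p stood at 0.0714, 0.0523 and 0.0754 in the controls and 0.0848, 0.0748 and 0.0795 with AA2P. The groups overlapped by 1 library, and the log2 difference was 0.28 (two-sided exact permutation test, p = 0.2, adjusted 0.3). Without AA2P replicate 2 the 3 log2 differences were 0.03 for miR-182 to miR-183, 0.35 for miR-96-5p to miR-183 and 0.33 for miR-96-5p to miR-182. Control replicate 2 held the lowest ratio of miR-96-5p to both partners.

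**Figure D4:**
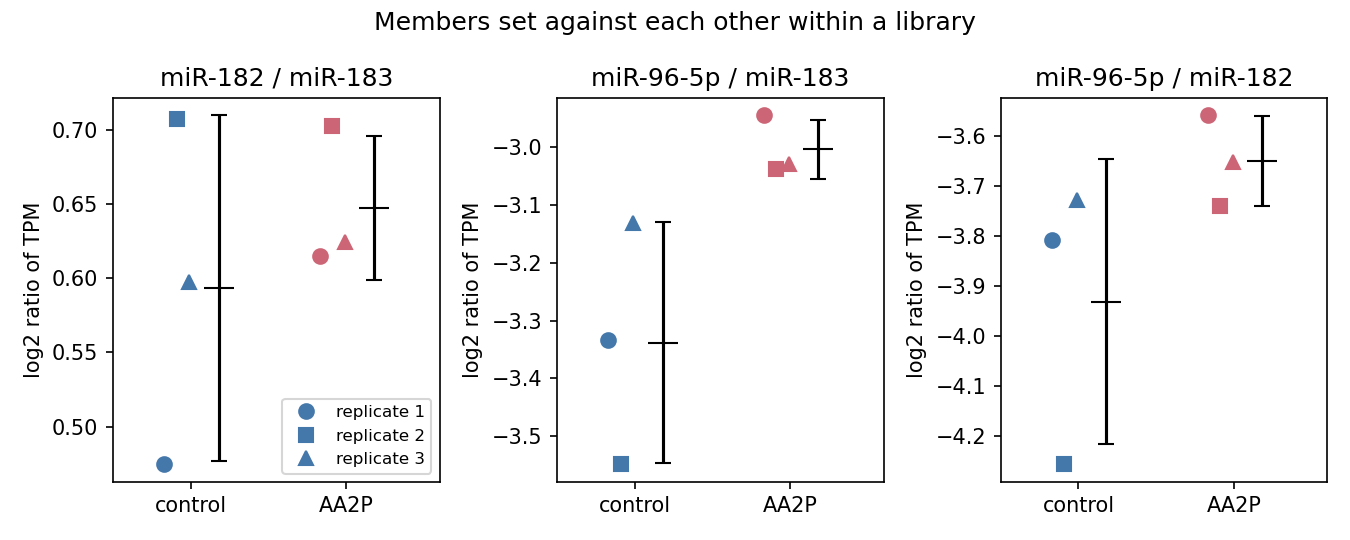
Log2 ratio of TPM between pairs of cluster members within a library (vertical axes, each with its own range) in the control and AA2P libraries; each point is 1 library, its shape gives the replicate number, and the bar is the mean ± SD of 3 libraries. The ratio of miR-182 to miR-183 overlaps between the groups, and that of miR-96-5p to miR-183 is higher in every AA2P library (-3.04 to -2.94) than in the controls (-3.55 to -3.13).

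Likeness of pattern was measured by the SD, over the 6 libraries, of the log2 ratio between an entry and a member, taken over known miRNAs with a mean of at least 10 TPM. A low SD means that the ratio stayed nearly constant. Of 203 miRNAs set against miR-182, miR-183 had the lowest SD (0.0851), and of 203 set against miR-183, miR-182 had the lowest. The median SD of those miRNAs was 0.314 for miR-182 and 0.308 for miR-183. miR-96-5p came at the 51st place for miR-182 (SD 0.244) and at the 53rd for miR-183 (SD 0.229). The first place rested on AA2P replicate 2. Over the other 5 libraries, a check added after the data were seen, miR-183 came at place 2 for miR-182 and miR-182 at place 4 for miR-183, with a similar SD (0.0837). miR-21-5p then led for miR-182 (SD 0.0560) and miR-92a for miR-183 (SD 0.0531), and miR-96-5p came at places 78 and 67.

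The miRNAs that followed were not members. For miR-182 they were miR-320 (SD 0.105; 827 ± 64.4 TPM in controls and 789 ± 105 TPM with AA2P, n = 3 per group) and miR-24-1-5p (0.139), the minor arm of a miR-24 hairpin. For miR-183 they were miR-1343 (0.0907) and again miR-24-1-5p (0.0940). The miRNAs most like miR-96-5p were miR-181d-5p (SD 0.0732), miR-98, a relative of let-7 (0.0859), and miR-26b-5p (0.0885), while miR-183 and miR-182 came at places 89 and 102 of 203. None of these entries passed the main test (limma, adjusted p = 0.0577 to 0.897).

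Pairs of miRNAs from other well-known clusters give the range of such ratios. Of the 9 pairs in the file, miR-17-5p with miR-20a-5p (SD 0.0574) and miR-23a with miR-27a (0.0733) were steadier than miR-182 with miR-183. miR-424-5p with miR-503 (0.128), miR-192 with miR-194a-5p (0.166), miR-200b with miR-429 (0.188), miR-191 with miR-425-5p (0.203) and miR-221-3p with miR-222 (0.214) lay between that pair and the ones with miR-96-5p. miR-99a-5p with let-7c (0.320) and miR-143-3p with miR-145-5p (0.674) varied more. These values hold both the spread within groups and any difference between them.

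The cluster was also set against the miR-200 family, epithelial miRNAs that repress ZEB1 and ZEB2. Its most abundant member, miR-200b, stood at 1523, 1448 and 1517 TPM in the controls and at 2645, 2732 and 2179 TPM with AA2P, and rose (log2 fold change 0.74, SE 0.101; limma, adjusted p = 0.00443), also under all 5 other scalings. miR-183 was 3.02, 3.02 and 2.82 times as abundant as miR-200b in the controls and 1.40, 1.69 and 1.71 times with AA2P, a 1.85-fold lower ratio. The ratio to miR-200b was 1.78-fold lower for miR-182 and 1.47-fold lower for miR-96-5p. Each of the 3 ratios was lower in every AA2P library (two-sided exact permutation test, p = 0.1, adjusted over the 3 ratios 0.1, the smallest value possible). Without AA2P replicate 2 the log2 differences were -0.93 for miR-183, -0.90 for miR-182 and -0.58 for miR-96-5p. Over all 6 libraries, 63.9% of the 352 entries above 0 in every library also had a lower ratio to miR-200b in every AA2P library. A lower ratio is thus not particular to the cluster.

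Of a list of 8 miRNAs of epithelia, 5 were in the file and 4 were tested, of which 3 rose, beside 19.9% of all tested entries called higher: miR-200b, miR-429 (98.8 ± 4.62 to 206.8 ± 23.6 TPM) and miR-375 (7.28 ± 0.745 to 10.99 ± 0.412 TPM, n = 3 per group; limma, adjusted p = 0.00222 for miR-429 and 0.0197 for miR-375). The call for miR-375 was lost under each of the 5 other scalings and in 4 of the 6 fits without 1 library. miR-141 did not pass. It stood at 45.3 to 47.7 TPM in the controls and at 63.5, 20.5 and 50.9 TPM with AA2P, lowest in AA2P replicate 2, the library where the cluster was highest. The summed level of the list was 1595 to 1683 TPM in the controls and 2425 to 2970 TPM with AA2P. In these bulk samples fewer cells of a type and less RNA per cell cannot be told apart, and the part of other cells in the levels of the cluster was not tested.

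Markers of other cells differed widely in level. The 7 blood miRNAs summed to 4.87 to 5.90 TPM in the controls and 4.48 to 14.3 TPM with AA2P. One of the 2 tested, miR-142-3p, rose from 0.507 ± 0.0802 to 1.98 ± 0.627 TPM (limma, adjusted p = 0.0293). It lay below 1 TPM in every control library, so it met the filter only through its AA2P values. The call ended without any 1 library other than AA2P replicate 2 (limma, adjusted p = 0.0718 to 0.0845). Totals without miR-21-5p ended it too (limma, adjusted p = 0.0643). The other, miR-486, went from 3.76 ± 0.549 down to 2.34 ± 0.710 TPM (log2 fold change -0.53) and did not pass (limma, adjusted p = 0.118). miR-223 was listed at 0 in 3 libraries and reached 5.40 TPM in AA2P replicate 1. The 6 muscle and myoid miRNAs summed to 168 to 227 TPM and 219 to 307 TPM, mostly miR-1 (153 ± 24.1 and 225 ± 41.4 TPM), and none of the 4 tested passed (limma, lowest adjusted p = 0.0746, for miR-1). miR-143-3p differed in the direction opposite to miR-1, at 34.6 ± 10.7 and 30.8 ± 8.22 TPM (log2 fold change -0.15, limma, adjusted p = 0.687). miR-1 passed as higher when entries under a mean of 10 TPM were dropped, with known entries only and without AA2P replicate 3 (limma, adjusted p = 0.0400, 0.00268 and 0.0496), and under none of the 5 other scalings. Of 8 germ cell miRNAs only miR-34c was matched, and it rose from 178 ± 8.01 to 242 ± 36.3 TPM (limma, adjusted p = 0.0464), a call that ended under all 5 other scalings. Among gonadal somatic miRNAs, miR-140-3p was at 1106 ± 61.5 and 1178 ± 69.9 TPM as deposited (log2 fold change 0.09; limma, adjusted p = 0.420). It changed sign under all 5 other scalings and passed as lower under quantile normalization (-0.32, adjusted p = 0.0311). The gonad-enriched miR-202-5p was at 0.40 to 1.01 TPM and miR-202-3p was listed at 0 in 5 of 6 libraries. No miRNA in these lists defines Sertoli cells alone, so the labelled cell type could not be checked here.

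Some other miRNAs known to act on FOXO1 or FOXO3, targets shared with the cluster, were taken from a list of 11. The list is not exhaustive and was chosen with earlier results of these data known, so its counts do not describe all such miRNAs. No test of the list as a set was run. It holds miR-221-3p and miR-222, which come from 1 cluster. In the file 10 were matched and 7 were tested, of which 4 fell and 3 did not pass, beside 4.85% of all tested entries called lower, with a median log2 fold change of -0.42 beside 0.25 for all tested entries. Those that fell were miR-222 (4732 ± 389 to 1760 ± 248 TPM), miR-221-3p (6032 ± 1019 to 2783 ± 204 TPM), miR-155-5p (578 ± 76.0 to 376 ± 32.5 TPM) and miR-29a-3p (1639 ± 159 to 1224 ± 23.2 TPM; limma, adjusted p = 0.00162, 0.00427, 0.0159 and 0.0183). These calls held under all 5 other scalings, where 8.31 to 11.5% of all tested entries passed as lower. Leaving out 1 library ended that of miR-155-5p in 2 of 6 cases and that of miR-29a-3p in 3 of 6. miR-27b-3p, more abundant than any cluster member, stood at 8537 ± 79.1 and 10364 ± 1349 TPM, and miR-27a at 5697 ± 138 and 4871 ± 405 TPM (limma, adjusted p = 0.0970 and 0.0789); miR-27a passed as lower under 4 of the 5 other scalings. The log2 fold change of miR-27b-3p, 0.27 as deposited, lay between -0.08 and 0.08 under those scalings, below 0 in 3 of them. miR-132 was higher with AA2P, at 2.36 ± 0.592 and 4.40 ± 0.866 TPM, and did not pass (limma, adjusted p = 0.0577). It passed as higher with known entries only and without the mean-variance trend (limma, adjusted p = 0.00305 and 0.0440), and under none of the 5 other scalings. The listed name miR-135a was not matched. An entry named miR-135, left out of these counts, had means of 21.6 and 27.2 TPM (log2 fold change 0.32, limma, adjusted p = 0.102). In the controls the mean of miR-182 (6662 TPM) lay above those of miR-27a, miR-221-3p and miR-222, and that of miR-183 (4413 TPM) below them.

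miR-1271-5p, encoded elsewhere in the genome, is known to share its seed with miR-96. It stood at 1045, 939 and 950.0 TPM in the controls and at 1120, 1064 and 1084 TPM with AA2P, above miR-96-5p in every library. Every AA2P library lay above every control library, as was so for 40.4% of all tested entries. The log2 fold change was 0.16 (SE 0.0708) and did not pass (limma, adjusted p = 0.150). Like miR-96-5p, miR-1271-5p changed sign under all 5 other scalings. miR-1271-3p, its minor arm, stood at 1.48 ± 0.431 and 1.81 ± 0.586 TPM (n = 3 per group).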

How the data were processed

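Small RNA of 6 libraries was sequenced on an Illumina NovaSeq per the labels' protocols. Values were deposited as TPM, with every column summing to 1000000 within rounding. The submitters' processing notes name Bowtie without saying what it was used for. Which genome build and miRNA catalogue the authors used, and how shared reads were handled, is not given in the sources used here. Low values stepped by 1 amount per library. In each library at least 99.0% of those under 2 TPM matched whole reads to 0.0051 TPM, where rounding alone gives 26.3 to 36.7%. Intervals and floors cover counting error only, since reads lack molecular identifiers.

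Groups came from the sample titles. limma 3.58.1 in R 4.3.3 compared the groups on log2(TPM + 1) with a mean-variance trend, two-sided, with Benjamini-Hochberg adjustment over the 433 tested entries; this scale understates the change of low entries. The code was tested on simulated data. Ratios used no pseudocount and exact permutation tests. Deviations from the group means correlated at 0.29, 0.06 and 0.18 between libraries of equal number, so no block was used. Trimmed-mean and median-of-ratios factors were computed from the TPM.

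Named were the members, the 3 miRNAs most like each, miR-21-5p, the miR-200 relatives, and list members with a mean of at least 10 TPM or a passing test. Others (miR-132, miR-135, miR-202, miR-223, miR-486, the arms of miR-1271) were named after their values were seen. The rule for shared seeds was not applied. The cluster, lists and alternatives were chosen with earlier results of these data known.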

Additional observations from a re-analysis of the deposited data

How the results depend on the processing

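The log2 fold change of miR-96-5p changed sign under 5 scalings: -0.10 (trimmed-mean), -0.079 (median-of-ratios), -0.092 (quantile), -0.10 (totals without miR-21-5p) and -0.0037 (totals without the 10 most abundant). miR-183 gained a call as lower at -0.43 (trimmed-mean), -0.41 (median-of-ratios), -0.44 (without miR-21-5p) and -0.34 (without the 10 most abundant), and miR-182 at -0.38 (without miR-21-5p). Members called were thus 1, 1, 2 and 1 under these 4, and 0 under the other alternatives with all libraries. The summed cluster differed by -689 TPM as deposited and by -2957, -2811, -3033 and -2246 TPM under the same 4. The causes beyond the change of totals were not tested. Calls over all entries were 107 (86 higher and 21 lower), 57 with no filter, 63 (52 and 11) with the replicate block, and 62 to 98 leaving out 1 library, with the lowest without control replicate 3. They were 47 higher and 50 lower with trimmed-mean scaling, 48 and 50 with median-of-ratios, 45 and 42 with quantile, 39 and 43 without miR-21-5p and 55 and 36 without the 10 most abundant.

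Leaving out 1 library gave -0.22 to -0.019 for miR-182, -0.25 to -0.090 for miR-183, 0.08 to 0.27 for miR-96-5p, 0 members called and -1613 to -213 TPM for the summed cluster. With totals without miR-21-5p as well, the ranges were -0.47 to -0.32, -0.49 to -0.40 and -0.20 to -0.026. The log2 ratio of miR-182 to miR-183 ranged from -0.0052 (without control replicate 1) to 0.11, that of miR-96-5p to miR-183 from 0.23 to 0.44 and that of miR-96-5p to miR-182 from 0.12 to 0.38. The ratios to miR-200b ranged from -0.90 to -0.73 for miR-182, from -0.94 to -0.80 for miR-183 and from -0.64 to -0.48 for miR-96-5p. Libraries shared only a number, and with the replicate block the pairing left all 3 members without a call (limma, adjusted p = 0.494, 0.370 and 0.415). Other pseudocounts, filters, known entries alone and no trend also left them without one. With 3 libraries a group, the fit to the deposited totals did not exclude changes within the 95% intervals given for each member.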
